A study of Mus musculus with 4 samples.

Results

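The genes described here are 34 components of the signalling route that runs from the receptor RANK through TRAF adaptors and kinases to the transcription factors NF-kB and AP-1, in mouse osteoclast precursors with and without the ion channel gene Piezo1. They were chosen by symbol from a list of TRAF adaptors, NF-kB kinases, subunits and inhibitors, MAP kinases and AP-1 factors. All 34 had a row in the deposited table of 12799 genes, and 33 of them passed the filter on low values that left 11781 genes to test. Poly(A) RNA was sequenced from bone marrow-derived monocytes of 12-week-old females after 3 days in osteoclast medium, which held 30 ng/mL M-CSF, a survival factor of the lineage, and 50 ng/mL RANKL, the ligand of RANK. Knockout cells came from Csf1r-iCre;Piezo1fl/fl mice, in which a recombinase driven by the Csf1r promoter removes the floxed Piezo1 segment in monocyte-lineage cells (n = 2). Control cells came from Piezo1f/f mice, which carry the floxed alleles without the recombinase (n = 2). Any effect of the transgene and an effect of Piezo1 loss therefore cannot be told apart, and every cell studied had been exposed to M-CSF and RANKL. Within a genotype the libraries are biological replicates, per the design text, and all share one batch value.

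RANKL binding clusters RANK at the cell surface, and RANK recruits TRAF adaptors, above all TRAF6. Ubiquitin chains built at these adaptors activate the kinase TAK1, which switches on the IKK complex, so that IkB proteins are degraded and NF-kB dimers enter the nucleus, and also the MAP kinases, which raise the amount and activity of AP-1. In osteoclast precursors both routes are needed to induce Nfatc1, the master factor of the lineage, and mice lacking both Nfkb1 and Nfkb2, or lacking Fos, form no osteoclasts. Much of this route is switched by phosphorylation, ubiquitin and degradation of proteins, which transcript levels do not measure.

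Read totals recovered from the deposited values were 14997205 and 18897927 in the knockout libraries, against 15320308 and 14122118 in the control libraries. Levels are given in CPM, gene reads relative to the scaled library total, and 1 read was worth 0.0544 to 0.0700 CPM. Piezo1 was at 61.0 and 56.2 CPM in the knockouts and at 430.1 and 384.5 CPM in the controls (log2 fold change −2.79, limma Benjamini-Hochberg adjusted p = 8.23e-05), so both knockouts were below both controls. The row named Tdtomato, for a red fluorescent reporter, was at 270 and 870 CPM in the knockouts and at 0.52 and 6.02 CPM in the controls (limma adjusted p = 0.0236), and its part in the results below was not tested. Of 10 macrophage and monocyte markers 9 were tested, all except Ly6c2, of which 0 had an unadjusted p under 0.05, and their summed level was 3744 and 4058 CPM in the knockouts and 3917 and 3333 CPM in the controls. All 10 osteoclast markers were tested, with sums of 60109 and 74441 CPM in the knockouts and 61945 and 59148 CPM in the controls. Among these 10, 1 had an unadjusted p under 0.05 in limma, the fusion gene Dcstamp, which was higher in the knockouts. Of 22 markers of stromal, fibroblast and osteoblast cells 20 were tested and 18 had a negative log2 fold change (median −0.53), with sums of 1952 and 1707 CPM in the knockouts and 2606 and 3130 CPM in the controls. Over all genes limma called 1 of them, the fibrillin gene Fbn1, which fell (adjusted p = 0.0357), and DESeq2 called 10, with 11 at an unadjusted p under 0.05 in limma. The part of these stromal transcripts in the results below was not tested. Markers of B cells, T and NK cells, dendritic cells, neutrophils, red cells and platelets, and endothelium gave 15 tested genes in all, of which 0 passed with limma, edgeR or DESeq2 and 1, the globin gene Hbb-bs, had an unadjusted p under 0.05 with limma. The 2 marker genes with the smallest p, list by list, were Mertk and Itgam for macrophages, Dcstamp and Car2 for osteoclasts, Mpo and S100a9 for neutrophils, Cd4 and Trac for T cells, Zbtb46 and Itgax for dendritic cells, Hbb-bs and Pf4 for red cells and platelets, and Kdr, the one tested, for endothelium. In bulk RNA, fewer cells of a type and less RNA per cell cannot be told apart.

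The comparison asks whether the transcripts of this route differ between knockout and control precursors. None of the 33 tested genes passed. At an adjusted p under 0.05 with limma, 0 were higher in the knockouts, where the share of all tested genes was 0.0424%, and 0 were lower, where it was 0.119%. edgeR on the recovered reads called 0 of the 33 against 0.161% of all genes, and DESeq2 called 0 against 0.56%. At an unadjusted p under 0.05 the count was 0 of 33 in each tool, beside 4.9% of all genes with limma. Log2 fold changes ran from −0.15 for Bcl3 to 0.25 for Nfkbie, with 21 positive and 12 negative and a median of 0.05, beside a median of 0.002 over all genes. Each limma adjusted p was 0.9997.

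The intervals, each for 1 gene and without adjustment over genes, bound how large a missed difference could be. Across the 33 genes the 95% confidence limits of the knockout over control ratio lay between 0.707, for Bcl3, and 1.43, for Nfkbie. All 33 intervals thus lay within 1.5-fold in either direction. Among all tested genes 69.2% had such an interval, and among the 6667 genes in the same range of mean signal as the 33 it was 93.7%. The 33 genes were well expressed, with a median level of 89.9 CPM beside 24.8 CPM over all tested genes, and they ranked between the 42.5th and the 99.1st percentile. Even the least abundant of them, Bcl3, rested on 232 and 338 reads in the knockouts and 309 and 247 reads in the controls.

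**Figure D1:**
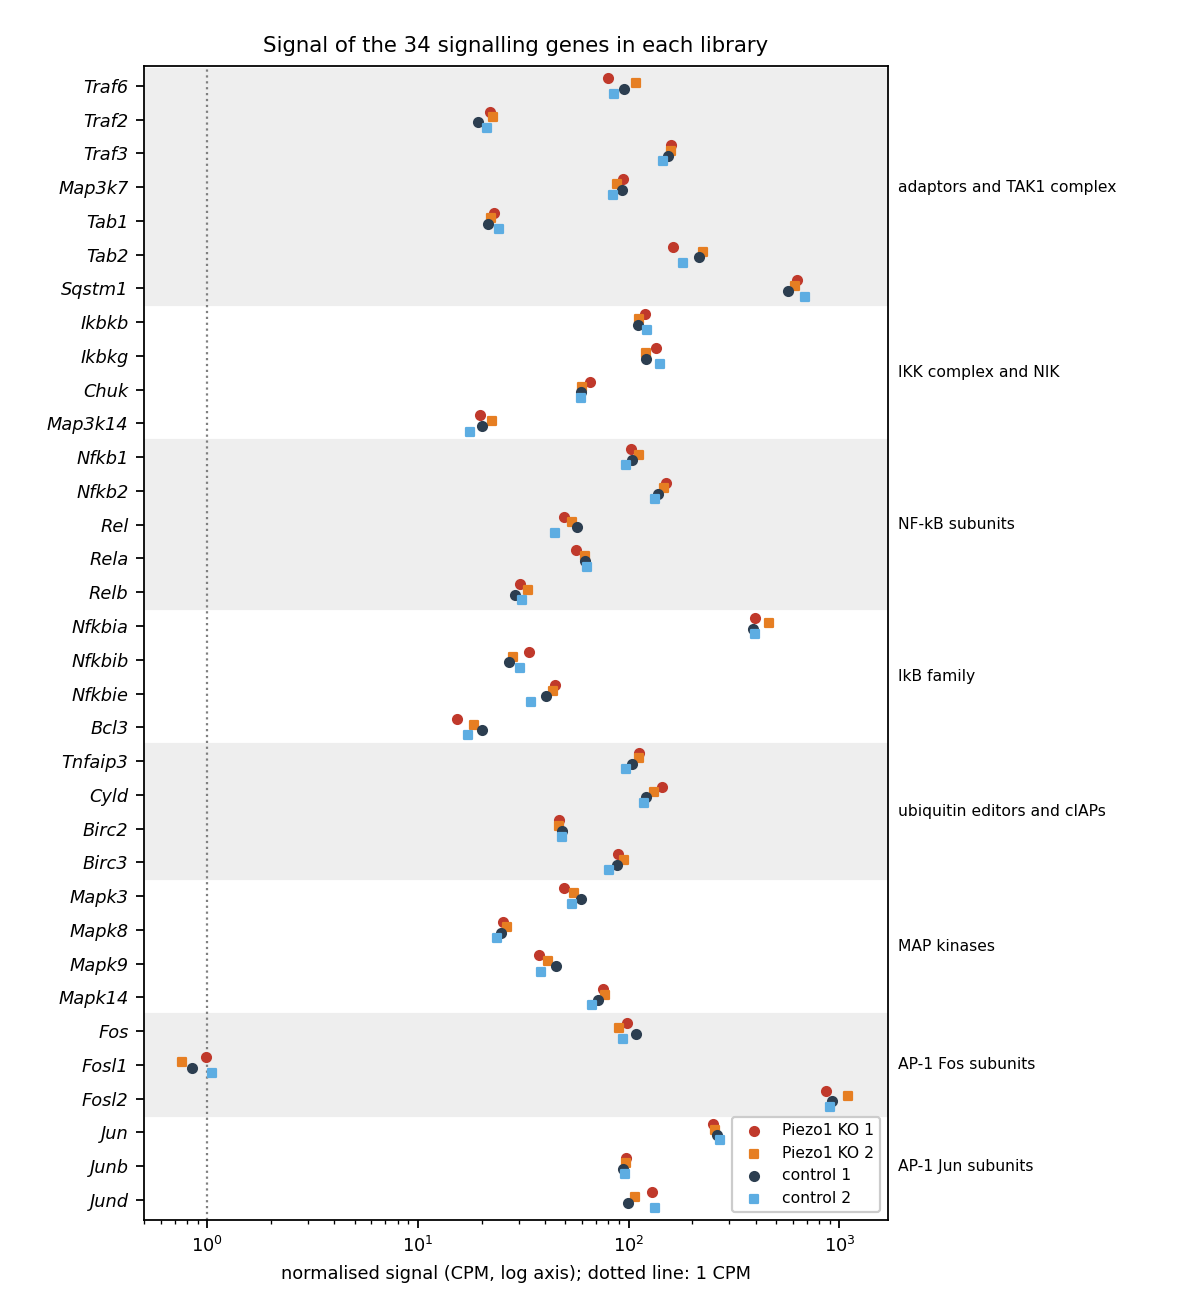
Normalised signal (CPM, log axis) of the 34 signalling genes in the 2 knockout and 2 control libraries, in rows by role, with the filter of 1 CPM as a dotted line. Points of a gene lie close together beside the range between genes, and Fosl1 alone lies near the filter.

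**Figure D2:**
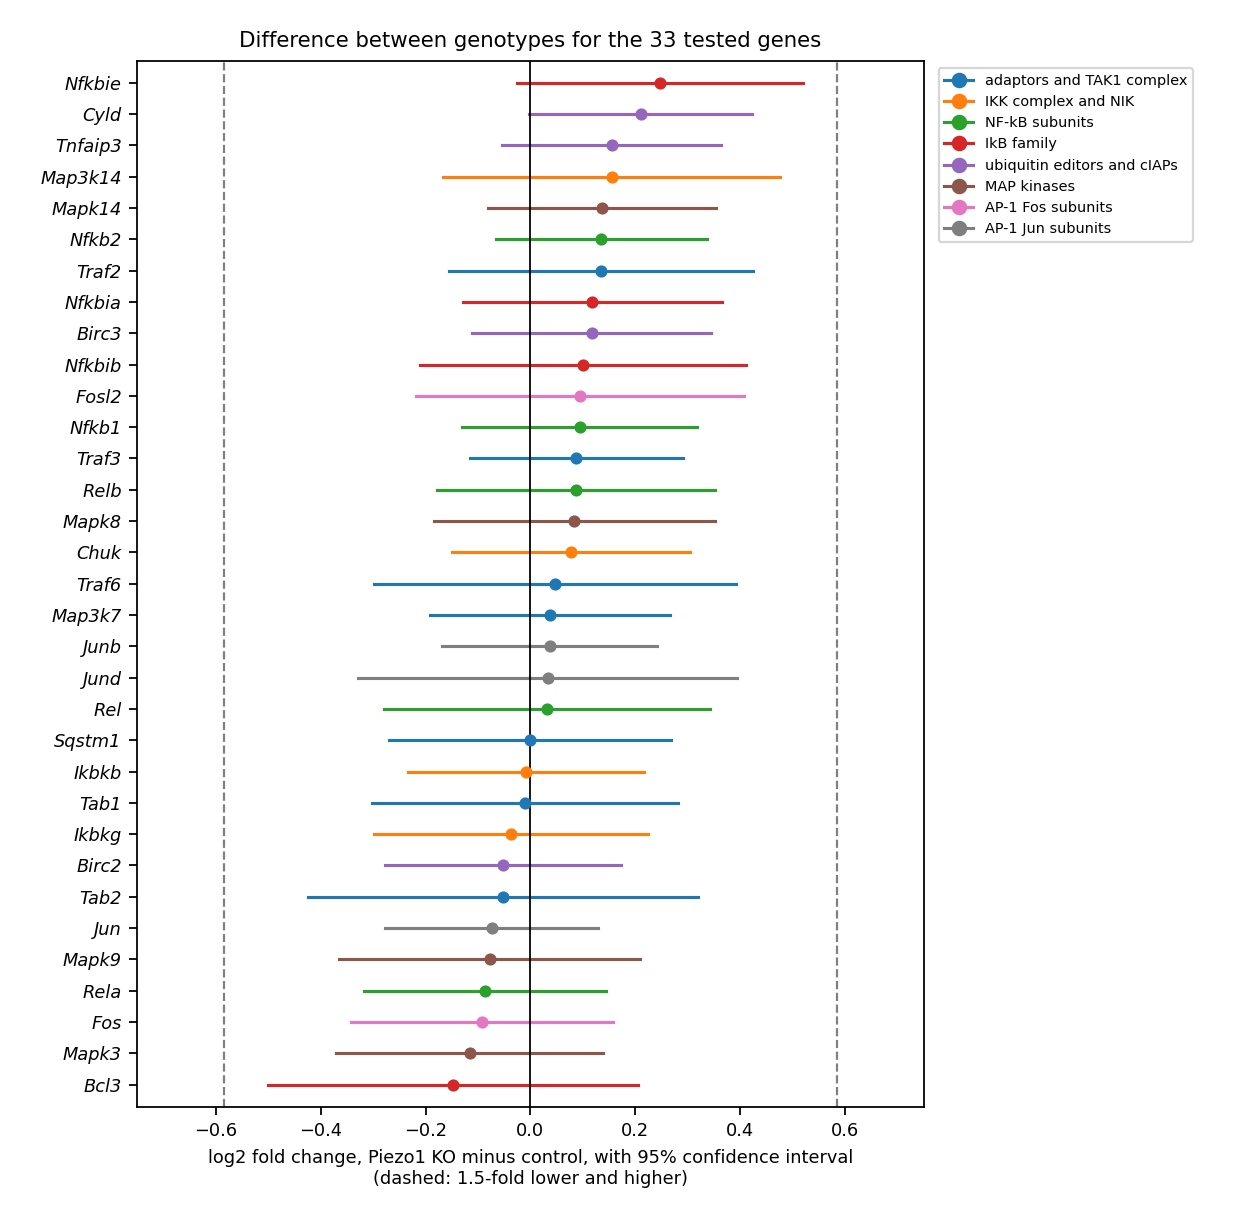
Log2 fold change of Piezo1 KO minus control for the 33 tested genes (points) with the limma 95% confidence interval (lines), coloured by role. Every interval includes 0 and stays inside the dashed lines at 1.5-fold, and Nfkbie and Cyld lie highest.

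For 14 of the 33 genes the values of the 2 genotypes did not overlap. In 11 of them both knockouts were above both controls, beside 16.5% of all tested genes, and in 3 both knockouts were below both controls, beside 15.4%. Among the 6667 genes in the same range of mean signal these counts were 1326 above and 689 below, or 19.9% and 10.3%, against 33.3% and 9.09% of the 33. That set was not matched by level, with a median signal of 59.0 CPM beside 89.9 CPM for the 33. The 11 were Traf2, Traf3, Chuk, Nfkb2, Nfkbie, Tnfaip3, Cyld, Birc3, Mapk8, Mapk14 and Junb, and the 3 were Rela, Birc2 and Jun. Relative to the control mean, the median of the 33 genes was 0.03 and 0.09 in the 2 knockouts on the log2 scale and 0.02 and −0.02 in the 2 controls. The 2 control medians mirror each other by construction, since the mean is that of the same 2 controls. The knockout medians lay above the control medians by an amount comparable to the gap between the 2 knockouts. With 1 library left out, so that 1 library faces 2, 23 genes did not overlap without knockout 1 (69.7%, beside 67.5% of all tested genes), 22 without knockout 2 (66.7%, beside 68.0%), 23 without control 1 (69.7%, beside 63.5%) and 26 without control 2 (78.8%, beside 64.7%). The median log2 fold change was 0.0851, 0.0345, 0.0747 and 0.0593 in these fits, and 0.0236 with all libraries scaled to their totals alone.

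At the level of the adaptors, Traf6, which carries the main RANK signal, was at 80.0 and 108 CPM in the knockouts and at 95.1 and 85.3 CPM in the controls. Knockout libraries held both the lowest and the highest value, and the log2 fold change was 0.05 (95% confidence interval −0.30 to 0.39). Traf2 and Traf3 hold the kinase NIK in check together with the cIAP ligases. Traf2 was at 21.9 and 22.6 CPM in the knockouts and at 19.2 and 21.3 CPM in the controls, and Traf3 was at 159 and 158 CPM against 153 and 145 CPM. Neither gene's genotypes overlapped. Sqstm1, which encodes the scaffold p62 that binds ubiquitin and TRAF6 and is mutated in some people with Paget disease of bone, was the most abundant adaptor per length, at 186 ± 2.93 CPM per kb of exon in the knockouts and 187 ± 23.9 in the controls (SD, n = 2 each). Its library values of 632 and 618 CPM in the knockouts lay between the control values of 571 and 684 CPM, and its log2 fold change was 0.00 (−0.27 to 0.27). Opposite-strand genes cover 17.3% of the exon bases of Sqstm1, 16.4% of those of Nfkbib and between 5.15% and 7.52% of those of Ikbkg, Bcl3, Jun and Junb, so reads of these genes could also be shared.

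The kinase TAK1, encoded by Map3k7, was at 93.9 and 88.1 CPM in the knockouts and at 93.1 and 84.3 CPM in the controls. Of its partners, Tab1, an activating subunit, was at 22.9 and 22.3 CPM in the knockouts and at 21.4 and 24.2 CPM in the controls. Tab2, whose product binds ubiquitin chains, had the widest spread of the 33 genes, at 163 and 224 CPM in the knockouts and at 216 and 181 CPM in the controls. In each of these 3 genes the groups overlapped, and the log2 fold changes were between −0.05 and 0.04.

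In the IKK layer, Ikbkg encodes the regulatory subunit NEMO, which reads ubiquitin chains, and Ikbkb and Chuk encode the catalytic subunits IKK-beta and IKK-alpha. Ikbkg, the most abundant of the layer per length of merged exons, was at 135 and 120 CPM in the knockouts and at 121 and 141 CPM in the controls. Ikbkb was at 119 and 112 CPM in the knockouts and at 111 and 122 CPM in the controls. In both genes the genotypes overlapped, with log2 fold changes of −0.04 and −0.01. Chuk, which drives the non-canonical branch, was at 65.7 and 60.2 CPM in the knockouts, just above 59.6 CPM in both controls. Map3k14 encodes NIK, the kinase that activates that branch, and was at 19.7 and 22.3 CPM in the knockouts and at 20.1 and 17.6 CPM in the controls. The genotypes overlapped, and the log2 fold change of Map3k14 was 0.15 (SE 0.14, −0.17 to 0.48, limma unadjusted p = 0.296).

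The 5 NF-kB subunits form dimers. Nfkb2, whose product is processed when NIK is active and pairs with RelB, was the most abundant per length, at 32.4 ± 0.482 CPM per kb in the knockouts and 29.5 ± 0.694 in the controls. Nfkb2 was at 150.0 and 147 CPM in the knockouts and at 137 and 133 CPM in the controls, without overlap, and its log2 fold change was 0.14 (SE 0.09, −0.07 to 0.34, limma unadjusted p = 0.158). Opposite-strand genes share 18.1% of its exon bases, so reads could be shared. Rela, the main activating subunit of the canonical branch, lay the other way, at 56.4 and 62.0 CPM in the knockouts and at 62.3 and 63.3 CPM in the controls. The higher knockout and the lower control of Rela were nearly equal, and the log2 fold change was −0.09 (−0.32 to 0.14). Nfkb1 was at 102 and 112 CPM in the knockouts and at 104 and 96.7 CPM in the controls. Relb was at 30.6 and 33.2 CPM in the knockouts and at 28.9 and 31.1 CPM in the controls. Rel, a subunit prominent in blood cells, was at 49.5 and 53.8 CPM in the knockouts, inside the control values of 56.9 and 44.8 CPM. As shares of the summed level per length of the 5 subunits, Nfkb2 took 42.8% in the knockouts and 40.5% in the controls and Rela took 25.5% and 28.1%. Relb, Rel and Nfkb1 took between 9.14% and 11.7% in either genotype. With the longest transcript as the length, the share of Nfkb1 in the libraries was 24.1% to 25.6%, so the rank of that gene rests on the length chosen.

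Inhibitors of the IkB family hold NF-kB in the cytoplasm, and Nfkbia (ENSMUSG00000021025.8, chromosome 12, 55489410 to 55492647, minus strand), which encodes IkB-alpha, is itself a classic NF-kB target. Nfkbia was the most abundant of all 34 genes per length, at 266 ± 29.0 CPM per kb in the knockouts and 244 ± 4.84 in the controls. Nfkbia was at 395 and 461 CPM in the knockouts and at 388 and 399 CPM in the controls, so that knockout 2 was high and knockout 1 lay between the controls (log2 fold change 0.12, SE 0.11, −0.13 to 0.37, limma unadjusted p = 0.298). Nfkbie (ENSMUSG00000023947.8, chromosome 17, 45555703 to 45563169, plus strand, GRCm38, protein-coding), which encodes IkB-epsilon, had the largest difference, at 44.8 and 43.5 CPM in the knockouts and at 40.3 and 34.2 CPM in the controls. The genotypes did not overlap, but the controls differed from each other nearly as much as the genotypes did (log2 fold change 0.25, SE 0.12, −0.03 to 0.52, limma unadjusted p = 0.0699). Nfkbib, which encodes IkB-beta, was at 33.5 and 28.2 CPM in the knockouts and at 26.9 and 30.4 CPM in the controls. Bcl3, an atypical IkB protein that acts in the nucleus with the products of Nfkb1 and Nfkb2, was at 15.3 and 18.4 CPM in the knockouts and at 20.1 and 17.3 CPM in the controls. Both overlapped. Nfkbia made up 88.2% of the summed level per length of the 4 IkB genes in the knockouts and 88.1% in the controls.

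In the role group of ubiquitin editors and cIAPs, 3 of 4 genes were higher in both knockouts than in both controls and 1 was lower. Among all tested genes 31.9% did not overlap in one direction or the other. Further genes of the route that act on ubiquitin, such as Traf6, are outside this group of 4. Cyld (ENSMUSG00000036712.15, chromosome 8, 88697028 to 88751945, plus strand), a deubiquitinase that removes chains from TRAF6 and NEMO and whose loss in mice gives overactive osteoclasts, was at 144 and 132 CPM in the knockouts and at 120 and 119 CPM in the controls. The log2 fold change was 0.21 (SE 0.09, −0.003 to 0.42), and its limma unadjusted p of 0.0521 was the smallest of the 33 genes. Tnfaip3 encodes A20, another ubiquitin-editing brake and an NF-kB target. Tnfaip3 was at 112 and 111 CPM in the knockouts and at 103 and 97.2 CPM in the controls (log2 fold change 0.15, SE 0.09, −0.05 to 0.36, limma unadjusted p = 0.124). Birc3 and Birc2 encode the cIAP ligases. Birc3, the most abundant of the group per length at 18.3 ± 0.860 CPM per kb in the knockouts and 16.9 ± 1.12 in the controls, was at 88.5 and 94.6 CPM in the knockouts and at 88.4 and 80.4 CPM in the controls. Knockout 1 and control 1 of Birc3 were thus nearly equal (log2 fold change 0.12, SE 0.10, −0.11 to 0.35, limma unadjusted p = 0.267). Birc2 was the steadiest of the 33 genes, at 46.6 and 46.5 CPM in the knockouts and at 48.2 and 48.4 CPM in the controls, with a log2 fold change of −0.05 (−0.28 to 0.17).

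Among the MAP kinases, Mapk3 encodes ERK1, Mapk8 and Mapk9 encode JNK1 and JNK2, and Mapk14 encodes p38-alpha, which osteoclast precursors need to respond to RANKL. Mapk14 was at 75.1 and 77.4 CPM in the knockouts and at 71.6 and 67.1 CPM in the controls, without overlap (log2 fold change 0.14, SE 0.09, −0.08 to 0.35, limma unadjusted p = 0.185). Mapk3, the most abundant of the 4 per length at 23.1 ± 1.83 CPM per kb in the knockouts and 25.01 ± 1.78 in the controls, was at 49.2 and 55.0 CPM in the knockouts and at 59.3 and 53.6 CPM in the controls. The genotypes overlapped for Mapk3, whose log2 fold change was −0.12 (−0.37 to 0.14). As shares of the 4 kinases per length, Mapk14 took 36.8% and 35.05% in the knockouts and 31.8% and 32.8% in the controls, and Mapk3 took 46.7% and 48.3% in the knockouts and 51.1% and 50.8% in the controls. Neither share overlapped between genotypes, and nor did those of Mapk8, Nfkb2, Rela, Jun and Bcl3 within their families. The shares of all other genes in the AP-1, NF-kB, IKK, MAP kinase and IkB families overlapped, so most shares did. By level, a measure other than the share, 31.9% of all tested genes did not overlap. Shares within a family are not independent, since a rise in any gene's share lowers the rest. The shares of Mapk14 and Mapk3 were singled out after their values were seen, and exact permutation of 2 libraries against 2 gives no p below 0.333. Mapk8 was at 25.2 and 26.4 CPM in the knockouts and at 24.8 and 23.8 CPM in the controls, and Mapk9 was at 37.3 and 41.4 CPM in the knockouts and at 45.1 and 38.2 CPM in the controls. Mapk8 values were close but separate, and Mapk9 values overlapped.

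AP-1 is a dimer of a Jun protein with a Fos or Jun partner. Fosl2, which encodes Fra-2, was the most abundant of the Fos genes per length, at 101 ± 17.1 CPM per kb in the knockouts and 94.3 ± 1.30 in the controls. Fosl2 was at 865 and 1099 CPM in the knockouts, on either side of the control values of 922 and 904 CPM, with a log2 fold change of 0.09 (−0.22 to 0.41). Fos itself, the subunit required for osteoclast formation, was at 98.5 and 90.3 CPM in the knockouts and at 108 and 93.6 CPM in the controls, with overlap and a log2 fold change of −0.09 (−0.34 to 0.16). Fosl1, which encodes Fra-1, did not pass the filter, at 0.990 and 0.761 CPM in the knockouts and 0.844 and 1.05 CPM in the controls, from 13 to 15 reads per library. Of its exon bases, 57.2% are shared with the opposite-strand gene Ccdc85b.

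Jun, the most abundant of the Jun genes per length at 79.4 ± 1.54 CPM per kb in the knockouts and 83.6 ± 2.10 in the controls, was at 250 and 257 CPM in the knockouts and at 262 and 271 CPM in the controls. Both knockouts were below both controls, with a log2 fold change of −0.07 (SE 0.09, −0.28 to 0.13). Junb was nearly level, at 97.1 and 97.4 CPM in the knockouts and at 93.5 and 96.0 CPM in the controls. Jund, whose product opposes growth in many cells, was at 129 and 108 CPM in the knockouts and at 99.5 and 134 CPM in the controls. The controls held both extremes of Jund, and 52.6% of its exon bases are shared with an opposite-strand gene. Of the summed level per length of the 6 AP-1 genes, Fosl2 took 30.3% in the knockouts and 28.4% in the controls, Jun 23.7% and 25.2%, Jund 21.3% and 21.0%, Junb 12.6% and 12.4%, Fos 12.0% and 12.9%, and Fosl1 0.129% and 0.140%. Fosl2, Jun and Jund thus made up most of the summed level of these 6 genes in both genotypes. Other AP-1 family genes are outside this sum. Among them Jdp2 was at 1212 and 1533 CPM in the knockouts and at 1267 and 1318 CPM in the controls.

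Library to library gaps within a genotype were as large as most differences between genotypes. The gap used is the larger of 2 gaps between single libraries. The difference is between means of 2 libraries, so the measure favours the gap. For 24 of the 33 genes (72.7%) the larger of the knockout gap and the control gap exceeded the difference between genotypes, beside 78.9% of all tested genes. The exceptions were Traf3, Nfkb2, Nfkbie, Tnfaip3, Cyld, Birc2, Mapk8, Mapk14 and Jun. Tab2 and Traf6 had the widest gaps, of 0.46 and 0.44 on the log2 scale between the 2 knockouts, where their differences between genotypes were −0.05 and 0.05. Of the 33 genes, 12 (36.4%, beside 28.1% of all tested genes) were higher in knockout 2 than in knockout 1 and higher in control 1 than in control 2, among them Traf6, Tab2, Fosl2 and Mapk14. The reverse held for 8 (24.2%, beside 28.4%), among them Sqstm1, Jund and Ikbkg. The mitochondrial share of the signal was also higher in knockout 2 (2.74%) than in knockout 1 (1.38%) and in control 1 (3.13%) than in control 2 (2.27%), and its part in these gaps was not tested.

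**Figure D3:**
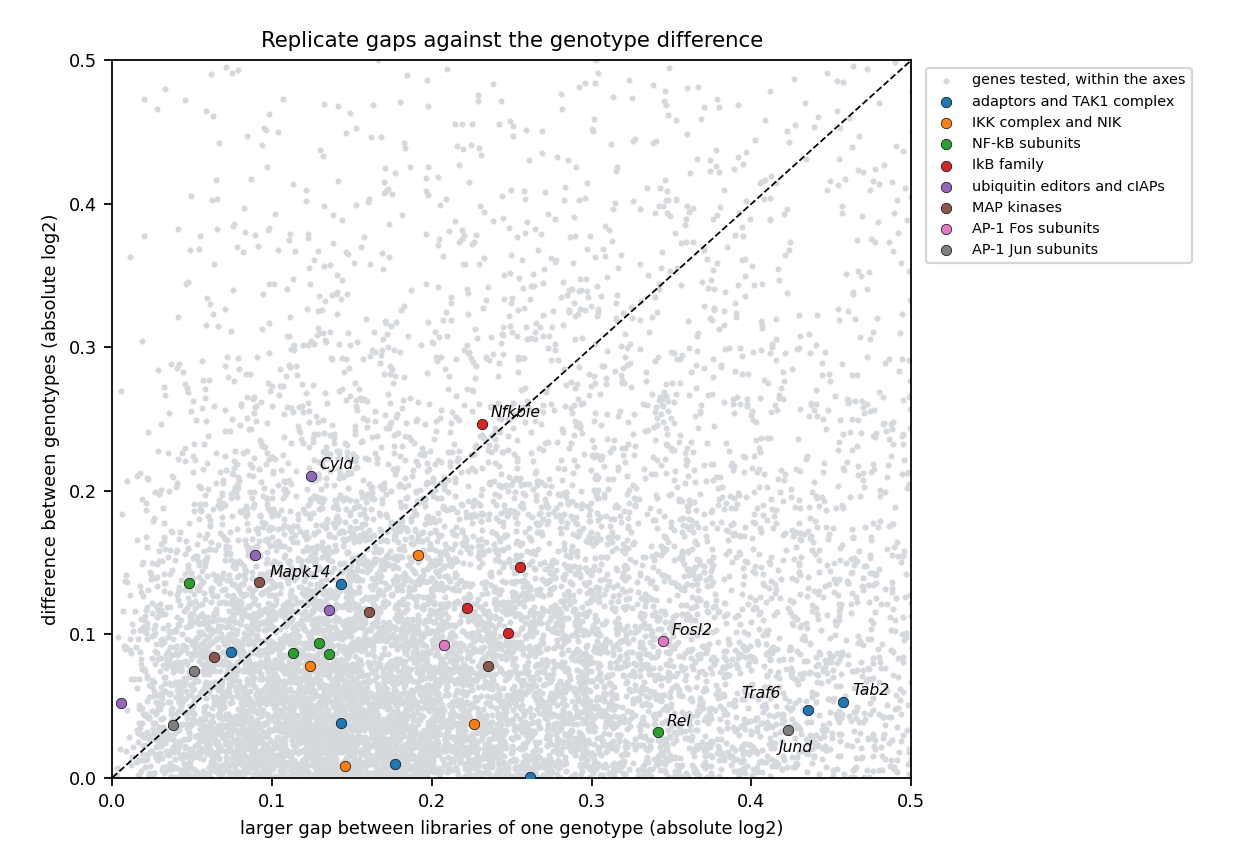
Absolute difference between genotypes (y axis, log2) against the larger absolute gap between libraries of one genotype (x axis, log2), for the 33 signalling genes (coloured by role) and the 9773 of 11781 tested genes inside the axes (grey). Points below the dashed line of equality, 24 of the 33, have a larger gap between single libraries of one genotype than between the genotype means.

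Promoter sequence was examined because NF-kB and AP-1 bind many genes of their own route. RefSeq promoter windows on GRCm38.p6 were found for 28 of the 34 genes, in 38 entries, and the 250 bases before each start were searched on both strands. The search used a kappaB-like word, GGGNNTTTC or GGGNNTTCC, an AP-1-like word, TGANTCA, and a CRE-like word, TGACNTCA, in which N is any base. The windows below belong to Nfkbia, the most abundant of the 34 per length, to Nfkbie and Cyld, the genes with the largest differences, and to Jun, which has the CRE-like word. They run 5′ to 3′ on the strand of the gene and end at the base before the start, with matches in capitals.
Nfkbia, chr12:55492648-55492897, minus strand: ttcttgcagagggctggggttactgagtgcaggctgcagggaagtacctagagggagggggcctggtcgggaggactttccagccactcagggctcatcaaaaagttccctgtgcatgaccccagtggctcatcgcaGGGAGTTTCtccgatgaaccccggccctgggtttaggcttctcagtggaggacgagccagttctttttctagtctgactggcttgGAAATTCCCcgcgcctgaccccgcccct
Nfkbie, chr17:45555450-45555699, plus strand: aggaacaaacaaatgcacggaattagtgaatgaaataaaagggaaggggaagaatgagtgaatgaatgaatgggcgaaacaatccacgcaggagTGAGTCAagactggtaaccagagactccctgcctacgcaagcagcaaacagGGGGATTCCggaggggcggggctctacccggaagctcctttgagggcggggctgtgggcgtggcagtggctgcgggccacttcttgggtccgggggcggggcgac
Cyld, chr8:88696778-88697027, plus strand: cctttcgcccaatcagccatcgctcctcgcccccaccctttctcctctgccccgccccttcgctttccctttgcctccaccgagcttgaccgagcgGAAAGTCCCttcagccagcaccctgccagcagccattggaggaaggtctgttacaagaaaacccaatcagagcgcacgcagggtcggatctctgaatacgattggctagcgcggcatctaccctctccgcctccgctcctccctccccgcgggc
Jun, chr4:95052223-95052472, minus strand: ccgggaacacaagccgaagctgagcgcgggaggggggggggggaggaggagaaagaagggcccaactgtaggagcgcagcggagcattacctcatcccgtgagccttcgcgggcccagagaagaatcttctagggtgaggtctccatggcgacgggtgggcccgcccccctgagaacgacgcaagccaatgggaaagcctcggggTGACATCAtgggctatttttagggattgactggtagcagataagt
In Nfkbia the kappaB-like words begin 113 and 28 bases before the start. In Nfkbie an AP-1-like word begins 156 bases and a kappaB-like word 105 bases before it. The kappaB-like word of Cyld begins 154 bases before the start, and the CRE-like word of Jun begins 45 bases before it. No window shown overlaps an annotated exon. Other windows searched did, and those of Nfkb2 had 250, 167 and 234 of their 250 bases in exons. The window of Jund ended at 70697738, before the annotated gene start at 70698949.

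A kappaB-like word stood in a window of 11 of the 28 genes (39.3%), against 1043 of 9329 tested genes with an entry (11.2%) and 2510 of all 27025 genes with an entry (9.29%). Counted by window, since genes with several starts have more windows, it was in 13 of 38 (34.2%), against 9.42% of the windows of tested genes and 8.14% of all windows. The 11 genes were Bcl3, Birc2, Cyld, Map3k7, Nfkb2, Nfkbia, Nfkbie, Rel, Rela, Tnfaip3 and Traf3. They take in the IkB genes except Nfkbib, the subunits Nfkb2, Rel and Rela, and the group of ubiquitin editors and cIAPs except Birc3. No window was found for Nfkb1, Relb, Ikbkb, Tab1, Mapk3 and Fosl1, so these were not searched. The AP-1-like word was in 4 genes (14.3%), namely Ikbkg, Nfkb2, Nfkbie and Tnfaip3, against 5.46% of tested and 7.82% of all genes. The CRE-like word was in 4 genes (14.3%), namely Birc2, Jun, Rela and Tnfaip3, against 7.25% and 8.55%. These matches are letters in a window and not measured binding. The median log2 fold change was 0.09 for the 11 genes with a kappaB-like word and 0.05 for the 17 without one, a difference smaller than the gap between the knockout medians and given without a test.

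**Figure D4:**
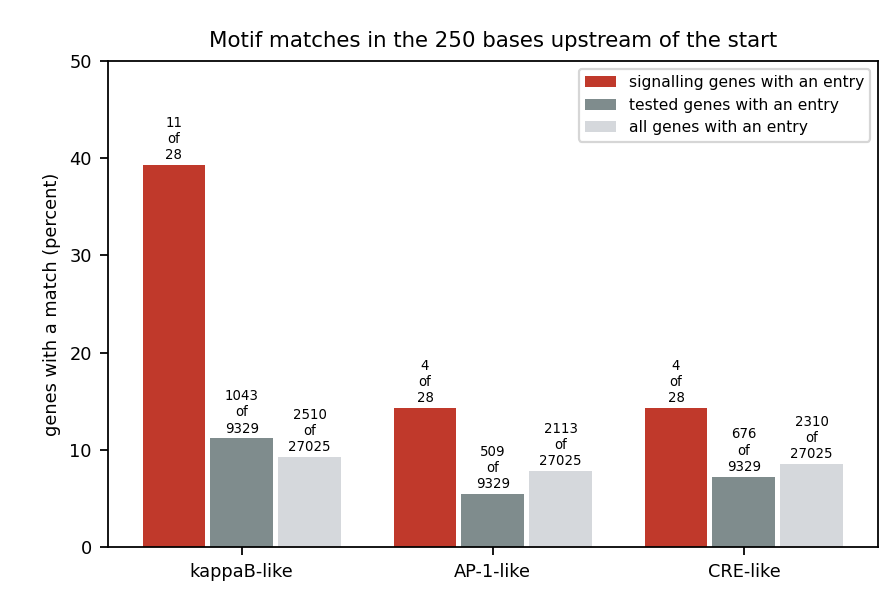
Percent of genes with at least 1 match in the 250 bases before the start, for the signalling genes, the tested genes and all genes with an entry, with counts above the bars. The kappaB-like word has the tallest bar, 11 of 28 signalling genes.

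Around the 34 genes, 164 other genes of the pathway in 12 lists were examined, of which 141 were tested. With limma, edgeR and DESeq2 0 of the 141 passed, with 9 at an unadjusted p under 0.05 in limma (6.38%, beside 4.9% of all tested genes), 9 in edgeR (6.38%, beside 4.81%) and 3 in DESeq2 (2.13%, beside 2.68%). Their median log2 fold change was 0.01. Csf1, which encodes M-CSF, had the smallest adjusted p in each tool (0.196 with limma, 0.181 with edgeR and 0.0700 with DESeq2) and was at 32.3 and 28.7 CPM in the knockouts and 46.4 and 45.3 CPM in the controls (log2 fold change −0.58). Among the receptors and ligands 3 of 4 genes were tested. Tnfrsf11a, which encodes RANK, was at 379 and 407 CPM in the knockouts and at 371 and 328 CPM in the controls (log2 fold change 0.17, limma unadjusted p = 0.137). Tnfrsf11b, which encodes the decoy receptor osteoprotegerin, was at 7.99 and 7.34 CPM in the knockouts and at 9.68 and 10.99 CPM in the controls (−0.41, unadjusted p = 0.0391). Neither RANK nor its decoy passed over all genes.

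The other lists gave small medians. Log2 fold changes had a median of 0.02 over 8 further TRAF genes, −0.05 over 12 genes of the TAK1, LUBAC and atypical IKK group, 0.08 over 12 further IkB and feedback genes, 0.05 over 10 further MAP and MAP2 kinases, 0.01 over 12 MAP3 kinases, −0.06 over 16 MAP kinase phosphatases and ERK feedback genes, and 0.08 over 17 further AP-1 family genes. The 2 genes with the smallest p of these lists, in that order, were Tifa and Traf5, Tab3 and Tnip1, Zc3h12a and Otud7b, Mapk7 and Map2k1, Map3k5 and Map3k4, Dusp1 and Spred3, and Atf5 and Fosb. Of these, Zc3h12a, which encodes the RNase regnase-1, was at 5.02 and 4.78 CPM in the knockouts and at 7.08 and 6.65 CPM in the controls (−0.45, limma unadjusted p = 0.0372), and the phosphatase gene Dusp1 was at 5.61 and 5.71 CPM against 10.4 and 6.79 CPM (−0.53, unadjusted p = 0.0462). The remaining 12 of the 14 had an unadjusted p of 0.05 or more.

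Downstream of the route, NF-kB target cytokines were scarce. Of 18 listed, 12 had no row in the table and Ccl2 was below the filter. The 5 tested, Tnf, Il1rn, Ccl3, Csf1 and Ptgs2, all had negative log2 fold changes with a median of −0.21, and 0 passed. That median is the value of Tnf, which was near the filter, at 2.05 and 0.65 CPM in the knockouts and 1.82 and 1.19 CPM in the controls. Ccl3 was as low, and the values of Tnf, Ccl3 and Il1rn overlapped between genotypes. Ptgs2 was at 1.19 and 1.52 CPM in the knockouts and at 1.88 and 3.78 CPM in the controls (−0.79, limma unadjusted p = 0.0451). Of 16 tested targets in survival, adhesion and feedback 0 passed, with a median of −0.07. Tnfaip2 was at 403 and 378 CPM in the knockouts and at 317 and 334 CPM in the controls (0.26, unadjusted p = 0.0237), and Tnfaip8 was at 92.9 and 91.5 CPM in the knockouts and at 76.8 and 78.5 CPM in the controls (0.25, unadjusted p = 0.0256). The third gene of this list at an unadjusted p under 0.05 was Myc, a growth regulator, which lay the other way, at 17.9 and 18.0 CPM in the knockouts and at 23.4 and 21.1 CPM in the controls (−0.30, unadjusted p = 0.0452). In these 3 genes the values did not overlap, and none passed over all genes. The 15 immediate early genes outside AP-1, which respond within minutes to handling, had a median of −0.01, with Klf10 and Egr3 at the smallest p (unadjusted p = 0.0789 and 0.125). In the osteoclast transcription programme 0 of 15 passed, with a median of 0.04. The smallest p belonged to the fusion gene Dcstamp, at 838 and 877 CPM in the knockouts and 666 and 649 CPM in the controls. Its log2 fold change was 0.38 (0.15 to 0.61, limma unadjusted p = 0.00512, adjusted p = 0.475). DESeq2 gave Dcstamp an adjusted p of 0.0954. Next came the calcitonin receptor gene Calcr (−0.14, limma adjusted p = 0.9997).

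**Figure D5:**
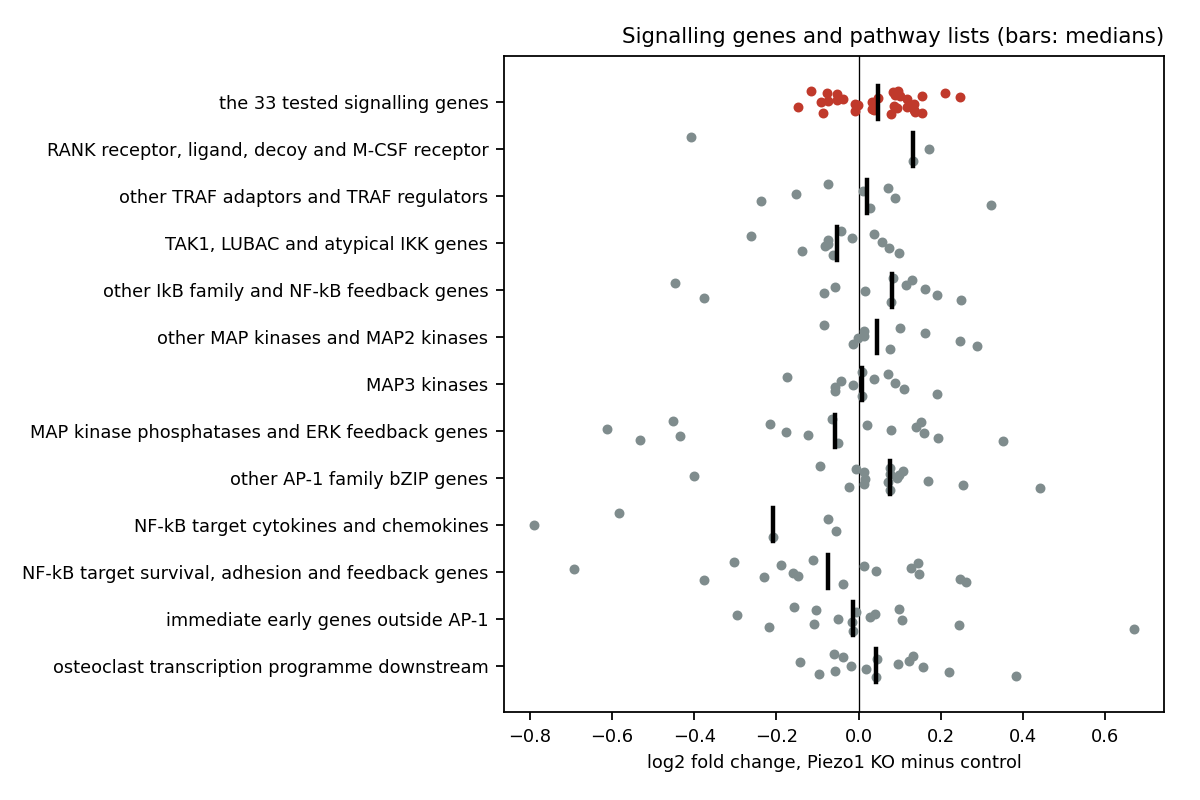
Log2 fold changes of Piezo1 KO minus control for the 33 tested signalling genes (red) and the tested genes of 12 further pathway lists (grey), with list medians as black bars. The red points stay between −0.15 and 0.25, and the list of NF-kB target cytokines has the lowest median, −0.21, from 5 tested genes.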

How the data were processed

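The authors deposited a single table of normalised signal per gene and library, 2 knockout and 2 control, with no replicates pooled. Software named in the submitters' processing notes was STAR, Subread with featureCounts, and edgeR, without versions, and the builds were mm10 and GRCm38. No source used here gives the annotation release, the strand setting or the filter on low genes, so overlapping and antisense genes can share reads. Every deposited value (100% within 0.001 reads) was a whole multiple of the value of 1 read in its library, and reads recovered in this way gave TMM-scaled CPM that differed from the deposited signal by at most 4.91e-11. No pair of libraries agreed within sampling noise (chi-square test of the reads).

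The fit was limma 3.58.1 on log2(CPM + 0.5) with an intensity trend, 2-sided, with genotype as the only term, over genes that reached 1 CPM in 2 or more libraries, and Benjamini-Hochberg adjustment over 11781 genes, with 7.52 residual degrees of freedom after moderation. A fold change on this scale understates that of low genes. edgeR 4.0.16 and DESeq2 1.42.0 on the recovered reads, 3 pseudocounts, 2 filters, 3 scalings, 2 variance models, a block for the replicate number and each library left out were alternatives, and the scripts were tested on simulated data. Values after ± are SDs over 2 libraries.

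The members and lists were chosen with earlier results of these data known, so no list was tested as a set. Full values were given for the 8 genes with the smallest p (Cyld, Nfkbie, Tnfaip3, Nfkb2, Mapk14, Birc3, Map3k14 and Nfkbia) and the most abundant gene per length of each of 8 roles, and in each further list for genes that passed, or otherwise the 2 with the smallest p were named. Lengths were merged exons of GENCODE M21 on GRCm38, which may not be the authors' release, and a switch to the longest transcript was added after seeing the data. Promoters came from RefSeq. Versions were R 4.3.3, Python 3.11.15, NumPy 2.4.6, pandas 2.3.3 and matplotlib 3.10.9.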

Additional observations from a re-analysis of the deposited data

How the results depend on the processing

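None of the 33 tested signalling genes passed under any of the 17 alternatives, and the smallest adjusted p that any reached was 0.763, for Traf6. Signs changed only when a library was left out, in 4 genes without knockout 1, 7 without knockout 2, 4 without control 1 and 7 without control 2. The median log2 fold change of the members ranged from 0.0345 to 0.0851 with 1 library left out, the highest without knockout 1, and members whose groups did not overlap then numbered 22 to 26 (66.7% to 78.8%, beside 63.5% to 68.0% of all tested genes), against 14 with all libraries. Over all genes, leaving out 1 library gave 2 to 16 genes higher and 4 to 60 lower in the knockouts, against 5 and 14. The counts were 16 and 60 without knockout 1, 11 and 50 without knockout 2, 2 and 5 without control 1, and 4 and 4 without control 2. In each of these fits the lone library is assumed to vary like the other genotype. Without an intensity trend 2 genes were higher and 2 lower, and DESeq2 gave 10 higher and 56 lower. The replicate number as a block gave 18 higher and 71 lower, and 0 members. The deviations of same-numbered libraries correlated at −0.0016 across 11781 genes, so the numbers were not taken as pairs. Scaling to library totals alone shifted the median of all genes by −0.02 and gave the members a median of 0.0236, against 0.0475 as deposited. The length used moved 44 of 57 per-length values by more than the spread between replicates, and it made Ikbkb the most abundant IKK gene per length in place of Ikbkg. Without the filter Fosl1 had a log2 fold change of −0.07 (adjusted p = 0.9997). The intervals are not adjusted for the number of genes, so a gene whose interval excludes 0 need not pass. The interval of Csf1, for example, ran from −0.84 to −0.32, with a limma adjusted p of 0.196. Every interval rests on 2 libraries per genotype, and real differences may have been missed.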
